A study of Mus musculus with 15 samples.

Results

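Keratin-associated proteins are encoded by the Krtap genes, and 54 of them were described here in mouse conjunctival tissue. They were chosen by their own counts, as the genes whose symbol starts with Krtap and a digit and that had at least 10 counts in at least 5 of the 15 libraries. The table held 58 Krtap genes among 55487 genes in all, and 19006 genes of any kind passed the same count rule. The levels of the 54 genes were therefore selected on, and they are given as a description. The count rule itself used no comparison between groups, but the genes were picked as a set with earlier results of these data known.

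All mice were female, WT and of the strain that the labels spell BALC/c, 9 to 12 weeks old, and all had been sensitized through the ear skin with MC903, a vitamin D analog that inflames the skin, together with the antigen OVA. The 5 mice of the PBS group received PBS eye drops and no named antibody, the 5 of the isotype group received OVA eye drops and an isotype control antibody, and the 5 of the anti–IL-4Rα group received OVA eye drops and an antibody that blocks the receptor chain shared by IL-4 and IL-13. The tissue labelled conjunctiva was read by RNA-Seq of polyA RNA, and its libraries held the conjunctival genes Muc5ac, Krt13 and Krt4 together with genes of eyelid epidermis, hair follicles, glands and muscle. The PBS and isotype groups differed in both the antigen and the antibody, which cannot be told apart in that comparison.

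Keratin-associated proteins fill the space between the keratin filaments of the hair shaft and crosslink them through cysteine, which gives hair its strength. They are made only late, by cells of the hair cortex and cuticle that leave the matrix at the base of a growing follicle, and a resting follicle makes no new shaft. Their families fall into proteins of high sulfur, ultra-high sulfur and high glycine-tyrosine content, and their small genes lie in tight clusters. In bulk tissue, fewer follicle cells and less RNA per cell cannot be told apart.

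The genes lay in 5 places of the mouse genome (GRCm38). Chromosome 16 held 24 of them between 88610705 and 89571183, chromosome 11 held 20 between 99550130 and 99993994, chromosome 7 held 5 (the Krtap5 genes), chromosome 10 held 3 (Krtap10-4, Krtap10-10 and Krtap12-1) and chromosome 1 held 2 (Krtap28-10 and Krtap28-13). The annotation gave 51 of the 54 a single exon. By the composition of the translated coding sequence, 19 were of the high glycine-tyrosine class (at least 35% glycine plus tyrosine), 16 of the ultra-high sulfur class (over 30% cysteine) and 18 of the high sulfur class (all other proteins), and Krtap19-9a, a pseudogene, was left unclassified. The cutoffs did not always follow the family names, and the class names used here refer to the cutoffs only. Krtap1-3 (30.6% cysteine), Krtap10-4 (30.3%) and Krtap10-10 (30.4%) lay just above the cysteine cutoff. Krtap9-3 (27.2%) lay below it and fell in the high sulfur class. Krtap7-1, with 29.9% glycine plus tyrosine, fell in the high sulfur class, and Krtap28-10, Krtap28-13, Krtap5-2 and Krtap5-3, rich in cysteine as well, fell in the glycine-tyrosine class.

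Reads of near-identical genes may be split or lost by the counting. Of the 54 genes, 12 shared more than 10% of their 90-base windows with another gene (66.1% for Krtap4-13 and 39.4% for Krtap10-10), and 29 shared none. The exons of Krtap10-10, Krtap15 and Krtap24-1 also overlapped those of another annotated gene, so their levels are uncertain.

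The promoters of 47 of the 54 genes were found in RefSeq (GRCm38.p6, 250 bases before to 50 after the start), and they had a feature in common that the count rule did not use. The TATA box sequence TATAAA was found on either strand in 38 of the 47 (80.9%), against 13.6% of all 32851 promoters. On the sense strand it started between 40 and 25 bases before the start in 59.6% of them, against 1.91% of all, and its median position was −31. Of the other motifs searched on both strands, CTTTGA, a core bound by the hair matrix factor Lef1, was in 31.9% against 16.003% of all, and CAATAAA was in 0 of 47 against 4.60%. Of the 9 promoters without TATAAA, 8 held TATAAG on the sense strand, a motif chosen after the sequences were seen that was in 25.5% of the members' promoters and 7.43% of all. CAATAAA ends in the same letters, ATAAA, as TATAAA does. A match is a description of letters only.

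The 100 bases before the start are shown, 5′ to 3′ on the gene's strand with TATAAA or TATAAG in capitals, for genes at the extremes of the results below. Krtap8-1 and Krtap3-1 were among the highest levels, and Krtap6-3 and Krtap20-2 rose least in the library in which the others were highest.
Krtap8-1, chr16:89487953-89488052, minus strand: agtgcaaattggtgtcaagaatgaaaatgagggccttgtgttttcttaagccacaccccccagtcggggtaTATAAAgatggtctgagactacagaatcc
Krtap3-1, chr11:99566631-99566730, minus strand: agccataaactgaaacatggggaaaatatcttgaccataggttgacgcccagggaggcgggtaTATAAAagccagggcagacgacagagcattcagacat
Krtap6-3, chr16:89083924-89084023, plus strand: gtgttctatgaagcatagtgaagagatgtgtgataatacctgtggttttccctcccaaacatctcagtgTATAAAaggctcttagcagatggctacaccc
Krtap20-2, chr16:89205761-89205860, plus strand: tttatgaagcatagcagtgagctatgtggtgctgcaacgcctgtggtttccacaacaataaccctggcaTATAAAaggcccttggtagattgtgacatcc
Krtap14, Krtap19-1 and Krtap19-4 had some of the largest excesses in that library, and TATAAG is in capitals in each. TATAAG was also in promoters of genes with a small or middling excess, such as Krtap20-2, Krtap5-3 and Krtap3-3.
Krtap14, chr16:88826146-88826245, minus strand: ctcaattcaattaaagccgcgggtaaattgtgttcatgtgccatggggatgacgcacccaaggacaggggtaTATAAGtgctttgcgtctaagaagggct
Krtap19-1, chr16:88869411-88869510, minus strand: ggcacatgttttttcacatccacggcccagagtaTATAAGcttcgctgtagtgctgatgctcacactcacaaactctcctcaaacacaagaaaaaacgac
Krtap19-4, chr16:88885090-88885189, minus strand: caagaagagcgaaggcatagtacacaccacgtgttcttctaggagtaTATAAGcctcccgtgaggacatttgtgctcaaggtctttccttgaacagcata

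Library totals ran from 48622195 to 87744970 counts, with the highest in isotype replicate 2. Levels are given as CPM (a count scaled to its share of the library) on library sizes scaled by TMM factors. At this depth 46 of the 54 genes had at least 10 counts in all 15 libraries. The genes nearest to the rule from inside were Krtap5-3, with 10 counts in 7 libraries, and Krtap5-1, in 8. Outside it were Krtap31-1, Krtap31-2 and Krtap9-5, with 10 counts in 2 libraries each, and Krtap13, in 0. The 3 outer genes had 1888, 1367 and 943 counts in isotype replicate 2 and 73, 46 and 25 in anti–IL-4Rα replicate 3, against at most 8 in any other library.

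Per kilobase of exon, Krtap7-1 was the highest of the 54 in all 15 libraries (mean 110.3 CPM per kilobase), followed by Krtap8-1 (101.7), Krtap3-1 (59.9), Krtap3-3 (44.3) and Krtap1-5 (36.5). Krtap7-1 and Krtap8-1 are neighbours on chromosome 16 that encode small cortex proteins, and Krtap3-1, Krtap3-3 and Krtap1-5 are high sulfur genes of the chromosome 11 cluster. The highest ultra-high sulfur gene was Krtap4-1 (31.3 CPM per kilobase), ranked 8. The lowest were Krtap5-3 (0.18) and Krtap29-1 (0.39). The leading genes of the other families lay between these, from 34.5 for Krtap15 and 30.5 for Krtap22-2 to 1.62 for Krtap20-2 and 0.71 for Krtap27-1, and the families Krtap5, Krtap10 and Krtap12, whose human counterparts are known from the hair cuticle, were led by Krtap5-5 (2.89), Krtap10-4 (6.66) and Krtap12-1 (3.52). The members that led the remaining families, in CPM per kilobase, were Krtap11-1 (27.2), Krtap9-3 (26.1), Krtap6-5 (25.3), Krtap14 (23.3), Krtap2-4 (21.7), Krtap16-3 (19.4), Krtap13-1 (17.0), Krtap21-1 (16.6), Krtap17-1 (10.4), Krtap28-10 (8.45), Krtap26-1 (4.45) and Krtap24-1 (1.87).

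**Figure D1:**
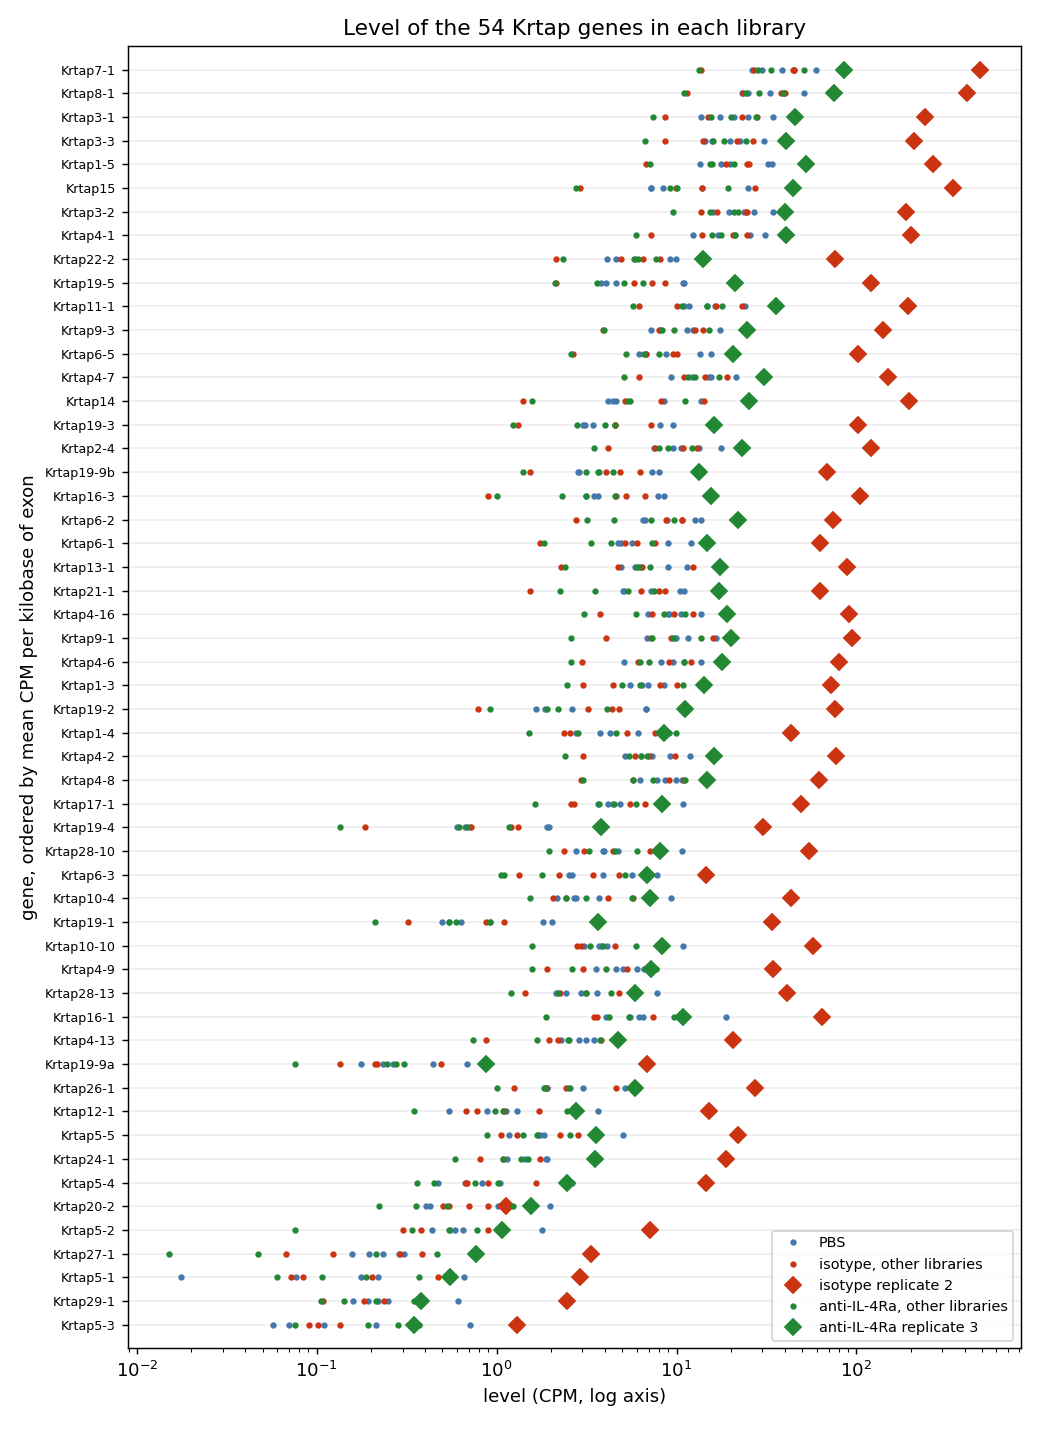
Level of each of the 54 Krtap genes (rows, ordered by mean CPM per kilobase of exon) in each of the 15 libraries, in CPM on a log axis. Points are single libraries colored by group (anti–IL-4Rα is written anti-IL-4Ra), and diamonds mark isotype replicate 2 and anti–IL-4Rα replicate 3. Isotype replicate 2 is the highest library for 53 genes, all but Krtap20-2.

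The summed level of the 54 genes varied widely between libraries of the same group. In PBS mice it was 419, 705, 343, 522 and 286 CPM. In isotype mice it was 465, 5169, 163, 567 and 313 CPM, and in anti–IL-4Rα mice 341, 140.2, 957, 478 and 358 CPM. Isotype replicate 2 stood apart from all other libraries, anti–IL-4Rα replicate 3 and PBS replicate 2 came next, while anti–IL-4Rα replicate 2 and isotype replicate 3 were the lowest. The ranges of the 3 groups overlapped. The highest library was 36.9 times the lowest, and 6.83 times with isotype replicate 2 left out. The genes took 0.576% of all counts in isotype replicate 2 and between 0.0130% and 0.104% in the other libraries.

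The highest and lowest libraries of the sum were also those of the 2 genes shown next, while the order between them differed in part. Krtap7-1 was at 38.7, 59.3, 29.9, 45.2 and 26.1 CPM in the PBS group, at 45.0, 486, 13.6, 44.3 and 27.0 CPM in the isotype group and at 28.5, 13.4, 85.6, 51.2 and 33.5 CPM in the anti–IL-4Rα group. Krtap3-1 was at 21.0, 34.3, 17.5, 25.04 and 13.6 CPM, then at 23.1, 239.7, 8.67, 28.2 and 14.9 CPM, and then at 15.5, 7.37, 45.7, 27.6 and 20.01 CPM in the same 3 groups. For both genes isotype replicate 2 was far above the rest, anti–IL-4Rα replicate 3 came next, and the groups overlapped.

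The within-group spread was large for all members. The SD of log2 CPM after centring in groups ran from 0.91 (Krtap20-2), 1.005 (Krtap3-2) and 1.08 (Krtap29-1) to 1.77 (Krtap19-1), 1.79 (Krtap14) and 1.85 (Krtap19-4), with a median of 1.24 against 0.18 over all genes tested. The median biological coefficient of variation was 0.81 for the members and 0.14 for all genes.

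Isotype replicate 2 was at least 4 times the median of the other 4 isotype libraries for 53 of the 54 genes, a threshold set after the values were seen, against 1.31% of all genes. Over the members the median of this ratio was 12.6, and over all genes it was 0.98. Anti–IL-4Rα replicate 3 was at least 2 times the median of the other 4 anti–IL-4Rα libraries for 53 of 54, against 2.10% of all genes, with medians of 2.74 and 1.01. Both libraries and this lower threshold were also picked after the values were seen. The members moved together, so these counts are not separate observations. Of the 14 libraries other than isotype replicate 2, anti–IL-4Rα replicate 3 was the highest for 36 genes and PBS replicate 2 for 14, and anti–IL-4Rα replicate 2 was the lowest for 39 and isotype replicate 3 for 11. The shares of all genes that were highest or lowest in these libraries are not given here.

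Most lists of other hair genes were high in isotype replicate 2, and those of the resting follicle and of the dermal papilla were not. The 15 hair cortex and cuticle keratins tested, which build the filaments that these proteins bind, summed to 3214 CPM in isotype replicate 2 and to between 98.3 and 577 CPM elsewhere. The 10 genes of the inner root sheath and companion layer, the sleeve that guides the growing shaft, summed to 11054 CPM in that library and to between 667 and 2008 CPM elsewhere. The 12 matrix regulators and precortex genes, which drive the growing bulb, summed to 819 CPM against 229 to 424 CPM, the 12 other hair shaft genes to 2018 CPM against 276 to 533 CPM, and the 7 hair bulb melanocyte genes to 210 CPM against 72.5 to 127 CPM. The 10 follicle stem cell and resting follicle genes, mostly Krt15, were at their lowest there, with 2393 CPM against 2642 to 3703 CPM. This low value was seen in that library only. In anti–IL-4Rα replicate 3, the next highest library for the Krtap sum, the list summed to 3583 CPM, against 2706 to 2888 CPM in the rest of its group. The median correlation of its genes with the log2 summed Krtap level, centred in groups, was 0.15, and 0.35 without isotype replicate 2. For the matrix regulators, some of which epidermis also expresses, this median was 0.81, and 0.39 without that library.

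**Figure D2:**
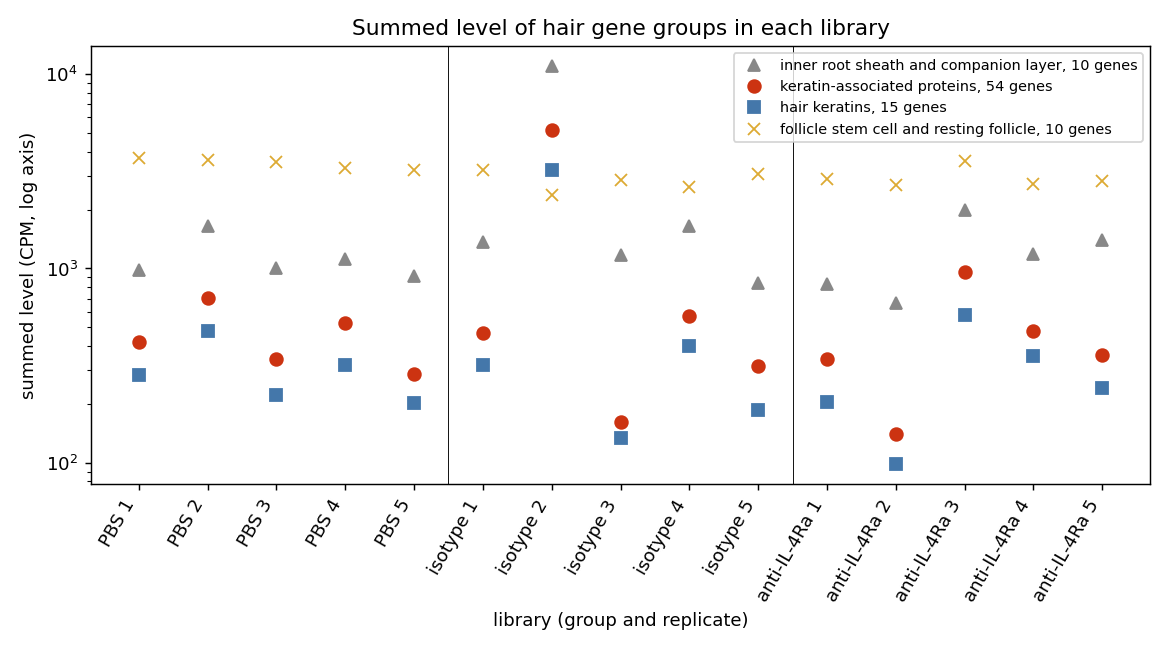
Summed level in each library, in CPM on a log axis, of the 54 Krtap genes, 15 hair keratins, 10 inner root sheath and companion layer genes and 10 follicle stem cell and resting follicle genes. Isotype replicate 2 is highest for the first 3 sums, at 5169, 3214 and 11054 CPM, and lowest for the last, at 2393 CPM. In anti–IL-4Rα replicate 3 the last sum is 3583 CPM, the highest of its group.

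Dermal papilla genes (10), also of the follicle, were not high in isotype replicate 2, at 219 CPM there and 188 to 273 CPM elsewhere. Lists of other tissue in the samples were not at their highest there either. Eyelid epidermis genes (10) summed to 16973 CPM there and 12117 to 24143 CPM elsewhere. Conjunctival and corneal epithelium genes (10) summed to 4195 CPM and 3474 to 5917 CPM. Meibomian and sebaceous gland genes (10) were lowest there, at 4497 CPM against 6651 to 15933 CPM, as were lacrimal acinar genes (6 of 10 tested) at 500.5 CPM against 682 to 5344 CPM and skeletal muscle genes (10) at 3894 CPM against 4530 to 11416 CPM. The part of tissue make-up and of the hair cycle in the Krtap levels was not tested.

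The ratio of Krtap to hair keratin sums stayed between 1.22 and 1.68 in all libraries, so these 2 sets moved nearly together. The ratio of Krtap to inner root sheath sums varied more, between 0.14 in isotype replicate 3 and 0.48 in anti–IL-4Rα replicate 3. In isotype replicate 3 the Krtap genes were low while matrix regulators summed to 424 CPM. Most of that sum came from Gata3 (117.3 CPM), Ovol1 (112.4 CPM), Dlx3 (63.0 CPM) and Prdm1 (56.5 CPM), which epidermis also expresses, and the eyelid epidermis sum, 21618 CPM, was the highest of the isotype group in the same library. The part of epidermis in this was not tested. There Krt35, one of the first hair keratins made as cells leave the matrix, was at 23.1 CPM, against 12.5 to 32.8 CPM in isotype replicates 1, 4 and 5, and Shh, a signal of the growing matrix, was at 5.40 CPM, against 1.57 to 3.68 CPM. Krt35 was picked after its values were seen, and its list as a whole was low there. The 15 hair keratins summed to 133 CPM in isotype replicate 3, against 187 to 400 CPM in isotype replicates 1, 4 and 5.

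Genes outside the Krtap names that were most like the members were nearly all hair shaft genes. Over the 15 libraries, centred in groups, the 15 highest correlations with the log2 summed Krtap level were between 0.985 (Krt33b) and 0.998 (Gm11562), and 8 of the 15 were hair keratins (Krt81, Krt83, Krt34, Krt86, Krt87, Krt33a, Krt31 and Krt33b). Another 5, Gm11562, Gm11938, Gm11563, Gm10229 and Gm11559, lay inside the Krtap clusters of chromosomes 11 and 16. The remaining 2 were Gprc5d, a receptor of differentiating hair and nail cells, and Calhm4. Without isotype replicate 2 the same 15 genes led, with r between 0.965 and 0.995 over 14 libraries. These points share depth and scaling, and the values are a description. The members themselves had a median r of 0.97 with the sum that holds them.

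The excess was not the same for every member, and most of the largest ratios were those of neighbouring genes on chromosome 16. In the run of 10 neighbouring members from Krtap14 (88818667 to 88826145) to Krtap16-3 (88962273 to 88962873), isotype replicate 2 was 15.4 to 37.5 times the median of the other isotype libraries, with a median of 25.5. The other 44 members had 1.81 to 20.3 and a median of 11.97. Some of these, such as Krtap5-1 (20.3) and Krtap5-4 (18.3) of chromosome 7, lay within the range of the run. The run was picked after these values were seen, so its higher median follows from that choice. It holds Krtap14, Krtap15, Krtap16-3 and the 7 Krtap19 genes, so position and family cannot be told apart in it. Of its 10 members 7 are of the glycine-tyrosine class, 2 are high sulfur and the pseudogene Krtap19-9a is unclassified. On chromosome 11 the ratio was much more even, from 8.21 to 13.6 over 20 genes.

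Krtap19-1 (ENSMUSG00000060691) had the largest ratio, 37.5. It was at 0.495, 1.82, 0.637, 2.05 and 0.545 CPM in the PBS group, at 0.879, 33.7, 0.320, 1.10 and 0.921 CPM in the isotype group and at 0.916, 0.211, 3.66, 0.593 and 0.543 CPM in the anti–IL-4Rα group. Isotype replicate 2 alone was above 4 CPM, and the other isotype libraries lay within the range of the PBS group or below it. Krtap14 (ENSMUSG00000074928) was at 4.44, 13.6, 4.18, 8.51 and 4.60 CPM, at 8.17, 196.5, 1.40, 14.2 and 5.15 CPM, and at 5.39, 1.57, 25.3, 11.1 and 5.48 CPM in the same order. Its neighbour Krtap15, whose gene span overlaps it on the other strand, had ratios of 28.8 in isotype replicate 2 and 4.63 in anti–IL-4Rα replicate 3.

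Krtap20-2 (ENSMUSG00000091039), a glycine-tyrosine gene, was the exception. It was at 1.02, 1.51, 0.425, 1.99 and 0.404 CPM in the PBS group, at 0.899, 1.13, 0.505, 0.542 and 0.704 CPM in the isotype group and at 1.24, 0.527, 1.54, 0.222 and 0.354 CPM in the anti–IL-4Rα group. Isotype replicate 2 was only 1.81 times the other isotype libraries here and lay below PBS replicates 2 and 4 and anti–IL-4Rα replicates 1 and 3. The next lowest ratios, 5.12 for Krtap6-3, 7.66 for Krtap6-2 and 8.78 for Krtap21-1 among the chromosome 16 genes, were those of neighbouring members. In anti–IL-4Rα replicate 3 the same 4 genes had ratios of 3.50 to 4.75, all above the median of the members, 2.74. Across the 54 genes the ratios in the 2 libraries had a Spearman rho of 0.51, a description over genes that are not independent.

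**Figure D3:**
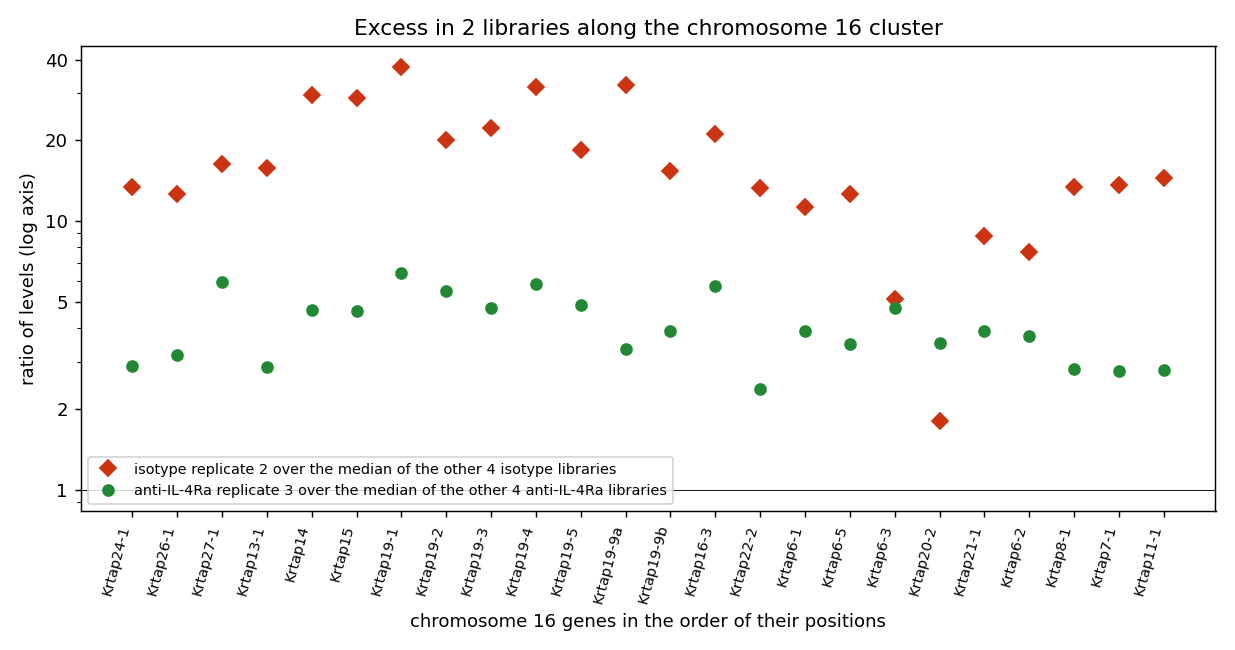
Ratio, on a log axis, of the level in isotype replicate 2 to the median of the other 4 isotype libraries (diamonds) and of anti–IL-4Rα replicate 3 to the median of the other 4 anti–IL-4Rα libraries (circles), for the 24 chromosome 16 genes in the order of their positions. The 10 genes from Krtap14 to Krtap16-3 have diamonds between 15.4 and 37.5, and Krtap20-2 has the lowest, 1.81.

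Shares within the summed level moved as well. The run from Krtap14 to Krtap16-3 made up 20.9% of the sum in isotype replicate 2 and 16.3% in anti–IL-4Rα replicate 3, against 7.15% to 13.7% in the other 13 libraries. Because the run was picked after its ratios were seen, its larger share in isotype replicate 2 restates that choice. The 6 genes of the glycine-tyrosine families Krtap6, Krtap20 and Krtap21 went another way, with 4.03% in anti–IL-4Rα replicate 4, 6.16% in isotype replicate 2 and up to 11.9% in PBS replicate 4. The 9 genes of the families Krtap5, Krtap10, Krtap12 and Krtap17 made up 6.45% in PBS replicate 2 and 6.63% in isotype replicate 3, and 2.87% in PBS replicate 4. By class, the glycine-tyrosine genes took 19.3% to 31.5% of the sum, the high sulfur genes 46.1% to 52.2% and the ultra-high sulfur genes 20.7% to 29.1%. None of these shares separated the groups.

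**Figure D4:**
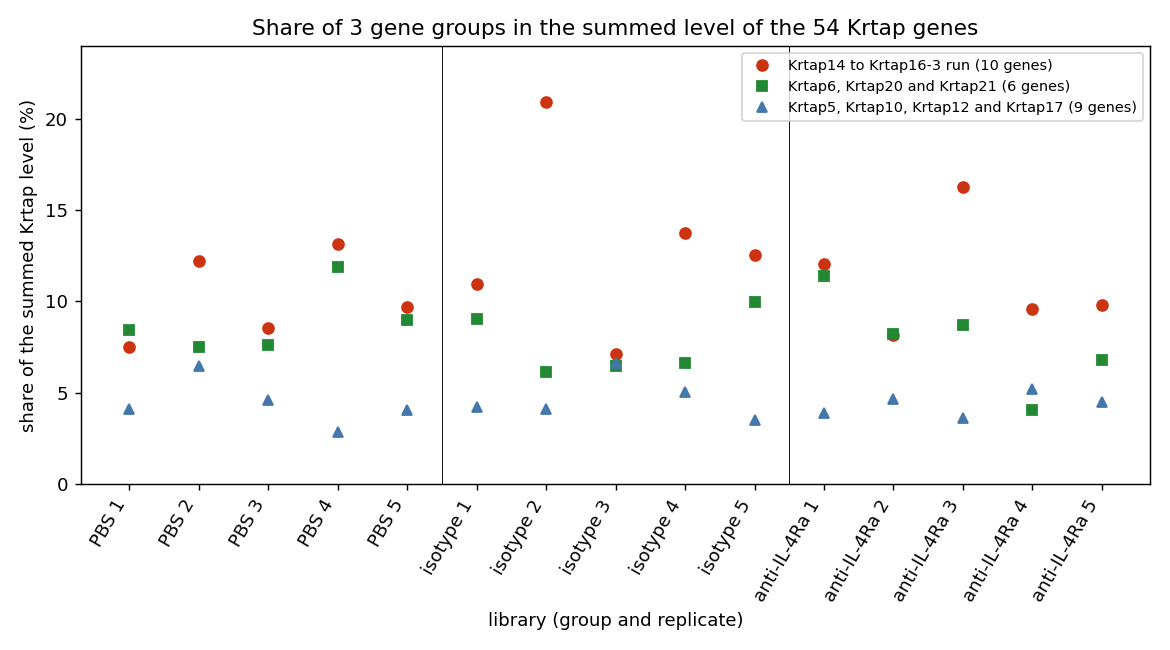
Share of the summed level of the 54 Krtap genes, in percent, taken by the 10 genes from Krtap14 to Krtap16-3, the 6 genes of Krtap6, Krtap20 and Krtap21, and the 9 genes of Krtap5, Krtap10, Krtap12 and Krtap17, in each library. The first share is highest in isotype replicate 2 (20.9%) and in anti–IL-4Rα replicate 3 (16.3%). Its genes were picked after their ratios in isotype replicate 2 were seen.

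The comparison of isotype with PBS asked what OVA challenge together with the isotype antibody changed. By the edgeR quasi-likelihood test, called at a Benjamini-Hochberg adjusted p under 0.05 over all genes, 0 of 54 members passed, against 17.0% of all genes tested. At an unadjusted p under 0.05 there were 5 of 54, against 32.6% of all genes. The log2 fold changes were positive for 53 genes, with a median of 1.43 (range −0.49 to 2.76) against −0.01 over all genes, and this came with isotype replicate 2. Without that library the median was −0.29, 52 of the 54 were negative, and 0 were called, against 10.8% of all genes, with 0 at an unadjusted p under 0.05.

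The 3 members with the smallest p were Krtap15, Krtap14 and Krtap19-1, all of the chromosome 16 run. Krtap15 was 12.3 ± 7.61 CPM in PBS mice and 79.4 ± 147 CPM in isotype mice (SD, n = 5), and 13.6 ± 10.3 CPM in the isotype group without replicate 2 (n = 4). Its log2 fold change was 2.69 ± 1.10 (SE, edgeR adjusted p = 0.106), and 0.14 ± 0.72 (adjusted p = 0.930) without that library. For Krtap14 and Krtap19-1 the values were 2.68 ± 1.12 (edgeR adjusted p = 0.111) and 2.76 ± 1.19 (adjusted p = 0.124), and 0.03 ± 0.72 and −0.45 ± 0.73 without isotype replicate 2. Krtap7-1, the gene with the highest level, had 1.63 ± 0.82 (adjusted p = 0.185), and −0.29 ± 0.47 without isotype replicate 2.

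The comparison of anti–IL-4Rα with isotype asked what blocking the receptor changed under OVA challenge. It shares the isotype libraries with the first comparison. Of the members 0 of 54 were called by edgeR, against 14.9% of all genes, and 4 had an unadjusted p under 0.05, against 32.9% of all genes. The log2 fold changes were negative for 53 genes, with a median of −1.52 (range −2.62 to 0.05) against 0.01 over all genes. Without isotype replicate 2 the median turned to 0.28, 52 of the 54 were positive, and 0 were called, against 5.96% of all genes, with 0 at an unadjusted p under 0.05.

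The smallest p belonged to Krtap19-1, Krtap24-1 and Krtap10-10. Krtap19-1 was 7.39 ± 14.7 CPM in the isotype group and 1.18 ± 1.40 CPM in the anti–IL-4Rα group (SD, n = 5), with a log2 fold change of −2.62 ± 1.18 (edgeR adjusted p = 0.139), and of 0.58 ± 0.73 (adjusted p = 0.642) without isotype replicate 2. Krtap24-1, a high sulfur gene at the edge of the chromosome 16 cluster, had −1.69 ± 0.78 (edgeR adjusted p = 0.148), and −0.13 ± 0.53 without that library. Krtap10-10, an ultra-high sulfur gene of chromosome 10, had −1.72 ± 0.80 (edgeR adjusted p = 0.149), and 0.01 ± 0.49 without that library.

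Anti–IL-4Rα was also compared with PBS, where isotype replicate 2 takes no part other than in the shared estimate of the spread. Of the members 0 of 54 were called by edgeR, against 3.72% of all genes, and 0 had an unadjusted p under 0.05, against 23.1% of all genes. The log2 fold changes lay between −0.50 and 0.48, with 24 positive and 30 negative and a median of −0.05 against −0.0043 over all genes. The smallest p belonged to Krtap20-2 (−0.44 ± 0.53, edgeR adjusted p = 0.675), Krtap6-3 (−0.48 ± 0.66, adjusted p = 0.719) and Krtap5-2 (−0.50 ± 0.85, adjusted p = 0.780). The SE of these log2 fold changes ran from 0.53 to 1.17 over the members, each larger than any of the changes. Anti–IL-4Rα replicate 3 carried much of this group's level. Without it all 54 log2 fold changes were negative, with a median of −0.51, and 0 were called, against 10.7% of all genes, with 0 at an unadjusted p under 0.05.

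**Figure D5:**
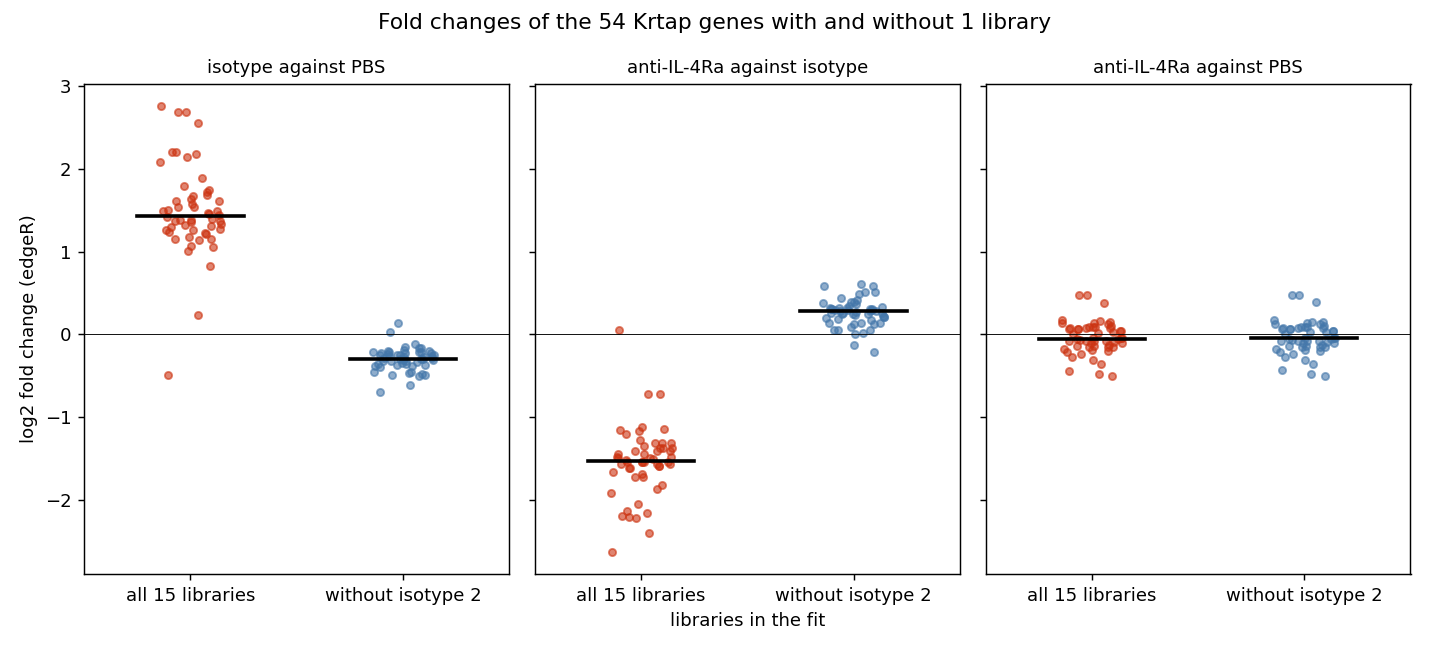
Log2 fold change (edgeR) of each of the 54 Krtap genes in the 3 comparisons, fitted on all 15 libraries and without isotype replicate 2. Points are genes, spread sideways at random, and bars are medians. The medians with and without that library are 1.43 and −0.29 in the left panel and −1.52 and 0.28 in the middle panel, and the median on all 15 libraries is −0.05 in the right panel.

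Other tools gave 0 calls too. DESeq2 withheld a p for 27 of the 54 members as outliers in 1 library, called 0 of the other 27 in each comparison, and had 3, 5 and 0 at an unadjusted p under 0.05 in the order above. Limma on log2(CPM + 1), limma on log2(FPKM + 1) and limma voom with quality weights called 0 of 54 in each comparison, with 0 at an unadjusted p under 0.05. With the quality weights the median turned to −0.13 in the first comparison and shrank to −0.16 in the second.

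The other hair lists were read in the same fit, where 17.0%, 14.9% and 3.72% of all genes were called in the 3 comparisons. Of the 15 hair keratins tested 0 were called in any of the 3 comparisons, with medians of 1.51, −1.55 and −0.04 on the log2 scale in the order above, and the first 2 turned to −0.25 and 0.23 without isotype replicate 2. The leading keratins were Krt81, Krt86 and Krt83, partners of the Krtap proteins in the cortex, with log2 fold changes of 1.51, 1.55 and 1.60 for isotype against PBS. Of the 10 inner root sheath and companion layer genes, led by Tchh, Krt71 and Krt25, 0 were called, with medians of 1.58, −1.58 and 0.05, and the first 2 shrank to 0.12 and −0.06 without isotype replicate 2.

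The matrix regulators act before the Krtap genes come on. For isotype against PBS 3 of 12 were called, all higher, namely Shh, Lef1 and Ovol1, against 17.0% of all genes called in either direction. Shh was at 1.26, 1.46, 1.29, 1.53 and 1.18 CPM in PBS mice and at 3.68, 12.9, 5.40, 2.69 and 1.57 CPM in the isotype group. The lowest isotype library (1.57 CPM) was only just above the highest PBS library (1.53 CPM). Its log2 fold change was 1.97 (edgeR adjusted p = 0.0108), and 1.31 (adjusted p = 0.0169) without isotype replicate 2. Lef1, a transcription factor of the precortex, had 1.65 (edgeR adjusted p = 0.0438), and 0.59 (adjusted p = 0.126) without that library, and Ovol1, a repressor in differentiating epithelium, had 0.38 (adjusted p = 0.0435), and 0.30 (adjusted p = 0.113). For anti–IL-4Rα against isotype 4 of 12 were lower (Shh, Ovol1, Msx1 and Prdm1) and 0 higher, against 14.9% of all genes called in either direction. Without isotype replicate 2 only Ovol1 passed, at a log2 fold change of −0.52 against −0.61 before, while Shh went from −1.68 to −1.02 (edgeR adjusted p = 0.0578), Msx1 from −1.41 to −0.65 (adjusted p = 0.0740) and Prdm1 from −0.39 to −0.34 (adjusted p = 0.0680). For isotype against PBS without that library Shh was higher and Bmp4 lower. For anti–IL-4Rα against PBS 0 of 12 were called. Of this list the 3 highest levels belonged to Gata3, Ovol1 and Dlx3.

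Of the 12 other shaft genes, led by Dsc1, Prr9 and S100a3, Lrrc15 was higher for isotype against PBS, Dsc1 and Tgm3 were lower for anti–IL-4Rα against isotype, and 0 were called for anti–IL-4Rα against PBS. Without isotype replicate 2 Lrrc15 went from 1.53 to 0.74 (edgeR adjusted p = 0.0750), Dsc1 from −0.54 to −0.45 (adjusted p = 0.0916) and Tgm3, still called, from −0.83 to −0.65. The medians of the list were 1.32, −1.26 and −0.04, and the first 2 shrank to −0.0019 and −0.04 without that library. The 7 melanocyte genes, led by Dct, Tyrp1 and Pmel, had 0 calls and medians of 0.54, −0.72 and −0.18, of which the first 2 became −0.02 and −0.20 without isotype replicate 2. Of the 10 follicle stem cell and resting follicle genes, led by Krt15, Cd34 and Foxc1, Fgf18, a signal that holds follicles at rest, and Foxc1 were lower for isotype against PBS, Tcf7l1 was higher for anti–IL-4Rα against isotype, and the medians were −0.05, 0.09 and −0.07. Without isotype replicate 2 Foxc1 went from −0.30 to −0.28 (edgeR adjusted p = 0.0510) and Tcf7l1 stayed at 0.23 (adjusted p = 0.0828), so the calls were lost with folds of about the same size. Fgf18 was at 6.27, 6.85, 3.77, 5.64 and 6.50 CPM in PBS mice and at 2.96, 1.83, 2.90, 2.93 and 3.56 CPM in the isotype group. The lowest PBS library (3.77 CPM) was just above the highest isotype library (3.56 CPM). The share of all genes whose groups did not overlap is not given here, for Fgf18 or for Shh. The log2 fold change of Fgf18 was −1.04 (edgeR adjusted p = 0.00664), and −0.91 (adjusted p = 0.0138) without isotype replicate 2.

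Of the lists of the dermal papilla and of other tissue, the muscle list had the most calls. For isotype against PBS 8 of its 10 genes were called, all lower, against 17.0% of all genes, and 7 without isotype replicate 2, against 10.8%. Of the 10 eyelid epidermis and the 10 meibomian genes 0 were called in any comparison. Sox18 of the dermal papilla list was higher for isotype against PBS, at a log2 fold change of 0.41 with isotype replicate 2 and 0.37 (edgeR adjusted p = 0.0815) without it, and Gkn3 of the conjunctival list was lower in both. For anti–IL-4Rα against isotype, Krt12 (3.55) and Pax6 (0.43) of the conjunctival list and Pigr (1.38) and Aqp5 (0.48) of the lacrimal list were higher. Without isotype replicate 2 these log2 fold changes were 3.65, 0.33, 1.23 and 0.41, and none passed (edgeR adjusted p between 0.0637 and 0.108). Pigr and Aqp5 were also higher for anti–IL-4Rα against PBS, with or without that library. The part of these tissues in the Krtap values was not tested.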

How the data were processed

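Conjunctival RNA of 15 mice in 3 groups of 5 was analysed. The paper's methods report outliers without naming them, and its RNA-Seq figures list fewer than 5 samples for some groups. All 15 libraries were kept here in the main fit. The deposited table holds estimated counts per gene, which the authors made with Omicsoft Array Studio from reads of a stranded polyA library on the mouse B38 genome with Ensembl.R100 genes. The software version, the counting method and its use of strand were not given in the sources used here. Between 6222 and 8005 genes per library had values that were not whole, and values were rounded. Symbols, positions and exon lengths came from GENCODE M21 (GRCm38), which matched 55141 of 55487 identifiers, and promoters from RefSeq (GRCm38.p6). Protein classes were computed from GENCODE coding sequences in place of the protein table that had been planned.

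The 19006 genes that reached 10 counts in 5 or more libraries were fitted for all 3 groups together with edgeR 4.0.16 in R 4.3.3 (TMM factors, quasi-likelihood test, two-sided, Benjamini-Hochberg adjustment over all genes, called under 0.05). The edgeR test gives no SE of a log2 fold change. The SE printed here is the absolute log2 fold change divided by the square root of the test's F statistic. DESeq2 1.42.0 and limma 3.58.1 were alternatives. Levels are CPM on TMM-scaled library sizes, with totals of 48622195 to 87744970 counts per library. Each library is labelled as a separate mouse sample, and where cages or days were shared the p-values measure only the spread between these samples.

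The members, the gene lists and the tests were chosen with earlier results of these data known. Named genes were the member with the highest mean CPM per kilobase in each family, the 3 members with the smallest p in each comparison, the 3 with the largest and the 3 with the smallest spread, the genes nearest to the count rule, of each list the 3 highest genes and any called, and the 15 other genes most correlated with the summed level. Other genes are said to be chosen after their values were seen.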

Additional observations from a re-analysis of the deposited data

Results flagged for a closer look

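Within each group of 5 libraries, the gap from the highest or lowest library to its nearest neighbour was divided by the range of the group and set against the critical value of Dixon, 0.71. Over 56 quantities in 3 groups (168 tests) 58 exceeded it, and 40 of these pointed to isotype replicate 2. Chance flags about 1 in 20 groups, and the quantities move together, so these are far from separate events. Some named genes were chosen for a small p or a large spread, to which isotype replicate 2 itself contributed. Their flags therefore follow in part from that choice. The share of all genes that would be flagged is not given here.

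Isotype replicate 2 was the far library for the summed Krtap level (0.919), for its glycine-tyrosine (0.930), high sulfur (0.922) and ultra-high sulfur genes (0.897), and for the sums of hair keratins (0.913), inner root sheath genes (0.920), matrix regulators (0.782), other shaft genes (0.945) and melanocyte genes (0.768). It was also the far library for 31 of the 32 named Krtap genes, all but Krtap20-2, with gap over range of 0.977 for Krtap19-1, 0.963 for Krtap19-4, 0.945 for Krtap19-5, 0.944 for Krtap16-3, 0.937 for Krtap3-2, 0.934 for Krtap14, 0.933 for Krtap7-1, 0.929 for Krtap1-5, 0.928 for Krtap8-1, 0.928 for Krtap15, 0.927 for Krtap12-1, 0.926 for Krtap6-5, 0.926 for Krtap9-3, 0.924 for Krtap2-4, 0.919 for Krtap22-2, 0.915 for Krtap3-1, 0.915 for Krtap5-5, 0.912 for Krtap17-1, 0.911 for Krtap10-4, 0.910 for Krtap11-1, 0.909 for Krtap4-1, 0.908 for Krtap28-10, 0.904 for Krtap10-10, 0.904 for Krtap27-1, 0.894 for Krtap5-2, 0.885 for Krtap21-1, 0.883 for Krtap29-1, 0.882 for Krtap13-1, 0.871 for Krtap26-1, 0.852 for Krtap24-1 and 0.738 for Krtap6-3.

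PBS replicate 2 stood apart in its group for Krtap10-10 (0.867), Krtap5-2 (0.843), Krtap17-1 (0.832), Krtap5-5 (0.832), Krtap29-1 (0.802), Krtap10-4 (0.784), Krtap12-1 (0.759) and Krtap28-10 (0.752), and for the inner root sheath sum (0.725). Anti–IL-4Rα replicate 3 stood apart for Krtap19-1 (0.795), Krtap19-5 (0.771), Krtap16-3 (0.759) and Krtap19-4 (0.716), for the summed glycine-tyrosine genes (0.721) and for the follicle stem cell and resting follicle sum (0.793). The others were PBS replicate 4 for the share of glycine-tyrosine genes (0.711), PBS replicate 5 for the lacrimal sum (0.941) and isotype replicate 3 for the eyelid epidermis sum (0.783).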

How the results depend on the processing

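No member was called in any comparison under any of the settings run, which were other scaling (upper quartile factors, library sizes without hair genes), other filters, 2 groups only, robust estimation, DESeq2, limma on log2(CPM + 1) or log2(FPKM + 1), voom with quality weights, the replicate block, each library left out and the settings added after the data were seen. The lowest adjusted p over all of them was 0.0599 for Krtap19-1 (edgeR, anti–IL-4Rα against isotype without anti–IL-4Rα replicate 3, where 35 members had an unadjusted p under 0.05) and, for isotype against PBS, 0.0774 for Krtap15 (edgeR, without isotype replicate 3, where 36 did).

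The direction of the members was not stable. For isotype against PBS the median log2 fold change of 1.43 became −0.13 with limma voom quality weights, and, in settings chosen after seeing the data, −0.37 with those weights and isotype replicate 2 left out and −0.29 without both isotype replicate 2 and anti–IL-4Rα replicate 3. For anti–IL-4Rα against isotype the median of −1.52 became −0.16, 0.074 and −0.23 in the same 3 settings. With 1 library left out at a time, the medians ranged from −0.29 (without isotype replicate 2) to 1.74 (without PBS replicate 2), from −1.95 (without anti–IL-4Rα replicate 3) to 0.28 (without isotype replicate 2), and, for anti–IL-4Rα against PBS, from −0.51 (without anti–IL-4Rα replicate 3) to 0.23 (without PBS replicate 2). The number called ranged from 0 to 0. The replicate numbers did not pair the libraries: over 15 pairs the correlation of same-numbered libraries ran from −0.38 to 0.45, and 4 of 15 libraries were best matched by their own number. With the replicate block the medians were 0.74, −0.52 and 0.23, with 0 members called.

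Depth limits the lowest genes, such as Krtap5-3 with 10 counts in 7 libraries, and the spread between 5 mice limits the rest.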
